A study of Mus musculus with 4 samples.

Results

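Costimulatory receptors are the proteins with which a T cell reads a signal beside its antigen receptor. The 8 genes described here are Cd28, Icos, Cd27, Tnfrsf9, Tnfrsf4, Tnfrsf18, Cd40lg and Cd226, chosen by name for this role, and they are 8 of the 19339 genes listed. They were read by bulk RNA-seq in TCRαβ+CD8αα+ intraepithelial lymphocytes (IELs), the T cells that sit between the epithelial cells of the small intestine. IELs were sorted as CD45+CD4-TCRβ+CD8α+CD8β- cells from the small intestines of C57BL/6 mice. Controls were Kdm6bfl/fl mice, which carry loxP-flanked Kdm6b alleles without a Cre. The other group was Kdm6bfl/fl-CD4Cre mice, in which a CD4 promoter drives Cre in developing T cells, so that the αβ T lineage as a whole, and not only IELs, can lose the histone H3K27 demethylase Kdm6b. The mice's age was not given in the sources used here. Each group had 2 libraries, numbered 1 and 3, and each library was pooled RNA of 3 mice of 1 genotype, so that differences between single mice cannot be seen.

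CD28 and ICOS belong to the immunoglobulin superfamily and pass their signal through PI3K and kinases near the T cell receptor. CD27, Tnfrsf9 (CD137), Tnfrsf4 (OX40) and Tnfrsf18 (GITR) belong to the TNF receptor superfamily and pass it through TRAF adaptors to NF-κB. Cd40lg encodes CD40L, a TNF family ligand that activated T cells show to CD40 on B cells and dendritic cells, and CD226 (DNAM-1) is an adhesion receptor of T and NK cells for nectin family proteins. TCRαβ+CD8αα+ IELs are known for carrying little CD2, CD5, CD28 and Thy1 on their surface compared with conventional T cells.

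Values are FPKM, fragment numbers divided by transcript length and by library size, and on this scale per length the levels of different genes can be set side by side. Differences are log2 fold changes of log2(FPKM + 1), deficient minus control, which understate the change of low genes. Kdm6b, the targeted gene, was at 16.5 and 16.0 FPKM in control replicates 1 and 3, and at 18.2 and 11.1 FPKM in deficient replicates 1 and 3. Its log2 fold change was -0.18 (SE 0.29, limma adjusted p = 0.886), and the groups overlapped because the library labelled Kdm6b-deficient replicate 1 was the highest of all. The exons that the floxed allele loses were not given in the sources used here, so a level over the whole gene need not follow the deletion, and the group names below are those of the labels.

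The test took in 12009 genes that reached 1 FPKM in 2 or more libraries. Among them, limma fitted on genotype alone gave 0 genes (0%) an adjusted p under 0.05, and the smallest adjusted p of any gene was 0.193. An unadjusted p under 0.05 was reached by 642 genes (5.35%). All 8 receptor genes passed the filter on low values, and in this fit 0 of them had an adjusted or an unadjusted p under 0.05. A limma fit with a replicate block gave 1019 genes an adjusted p under 0.05, none of them a receptor gene. That fit gave 4 receptor genes an unadjusted p under 0.05, beside 22.8% of all genes, as described in the last section. With 2 libraries against 2, a two-sided exact permutation test of a single gene cannot go below p = 0.333. The methods state in general that experiments were repeated independently, but for these libraries the labels do not say whether the 2 of a group came from separate experiments, so the p-values may measure only the spread between these pooled samples. Total reads were not given in the sources used here. From the smallest steps of the values, the depth relative to control replicate 1 was 0.999 in control replicate 3, 1.02 in deficient replicate 1 and 0.868 in deficient replicate 3.

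The sort was checked on marker genes. All 7 T cell markers were tested, and their summed level was 4393 and 3556 FPKM in controls against 3450 and 2583 FPKM in deficient-labelled libraries. Cd8b1, encoding the CD8β chain that the gate excludes, was at 0 to 1.64 FPKM. Cd4, which the gate also excludes as a protein, was at 30.6 and 10.1 FPKM in controls and at 30.5 and 3.17 FPKM in deficient replicates 1 and 3. Epithelial markers were present in every library. The summed level of the 22 epithelial genes, none of them at 0 in any library, was 1287 and 4132 FPKM in controls and 3879 and 10220 FPKM in deficient replicates 1 and 3. Deficient replicate 3 therefore had the most epithelial mRNA and the least T cell mRNA, and control replicate 1 the least epithelial and the most T cell mRNA. Fewer cells of a type and less RNA per cell cannot be told apart in such bulk samples.

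**Figure D1:**
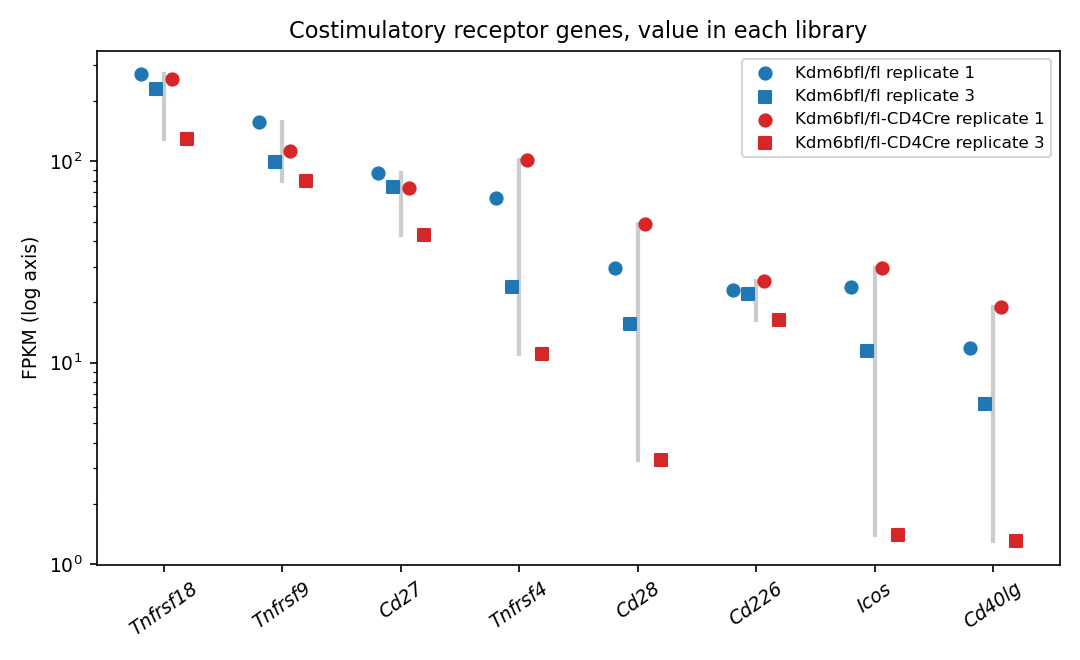
FPKM (log axis) of the 8 receptor genes in each of the 4 libraries, in order of the control mean; blue stands for Kdm6bfl/fl and red for Kdm6bfl/fl-CD4Cre, circles for replicate 1 and squares for replicate 3, and grey lines span the 4 values. Deficient replicate 3 is the lowest library for all 8 genes, and the span is over 9-fold for Tnfrsf4, Cd28, Icos and Cd40lg but at most about 1 log2 unit for Tnfrsf18, Tnfrsf9, Cd27 and Cd226.

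In the GRCm38.p6 annotation, Cd28 (chr1:60746388-60773359) and Icos (chr1:60960773-61000322) share a region of chromosome 1. Tnfrsf9 (chr4:150920155-150946104), Tnfrsf4 (chr4:156013595-156016613) and Tnfrsf18 (chr4:156026322-156028894) lie on chromosome 4, Cd27 (chr6:125232620-125237136) on chromosome 6, Cd40lg (chrX:57212143-57224042) on chromosome X and Cd226 on chromosome 18. The files give 1 value per gene, so isoforms cannot be told apart.

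In control IELs the most abundant mRNA of the set was Tnfrsf18, at 249.3 ± 29.9 FPKM (SD, n = 2), above 96.7% of the genes tested. Tnfrsf9 followed at 127 ± 40.4 FPKM, Cd27 at 81.0 ± 9.57 FPKM and Tnfrsf4 at 44.8 ± 29.6 FPKM (SD, n = 2 each). The 4 TNF receptors thus stood above the others in control mean level. Cd28 at 22.6 ± 9.88, Cd226 at 22.4 ± 0.700, Icos at 17.6 ± 8.78 and Cd40lg at 9.02 ± 3.90 FPKM (SD, n = 2 each) made up the lower end. Cd40lg, the lowest, was above 41.3% of the genes tested. The control ranges of neighbours in this order did not overlap from Tnfrsf18 down to Tnfrsf4, while from Tnfrsf4 down each gene's range overlapped that of the next. In the deficient-labelled libraries the order of the means was the same, and only the ranges of Tnfrsf18 and Tnfrsf9 and those of Tnfrsf9 and Cd27 stayed apart.

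Cd28, the receptor for CD80 and CD86, was at 29.6 and 15.6 FPKM in control replicates 1 and 3 and at 48.8 and 3.28 FPKM in deficient replicates 1 and 3. The deficient-labelled libraries were thus the highest and the lowest of the 4, with both controls between them. The log2 fold change was -0.63 (SE 1.12, 95% interval -3.42 to 2.17, limma adjusted p = 0.895). Icos, whose product binds ICOSL and supports helper T cell responses, was at 23.8 and 11.4 FPKM in controls and at 29.5 and 1.39 FPKM in deficient replicates 1 and 3. It showed the same arrangement, and its log2 fold change of -1.04 (SE 1.17, 95% interval -3.96 to 1.88, limma adjusted p = 0.838) was the lowest of the 8. Over all genes tested, a log2 fold change below -1 was found in 53 genes (0.441%) and one above 1 in 744 genes (6.2%).

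Among the TNF receptors, Cd27, the receptor for CD70, was at 87.8 and 74.2 FPKM in control replicates 1 and 3 and at 73.2 and 43.0 FPKM in deficient replicates 1 and 3. It was the only one of the 8 genes with both deficient-labelled libraries below both controls, and the gap between the groups, from 73.2 to 74.2 FPKM, was far smaller than the gap within the deficient group. Over all genes tested, both deficient-labelled libraries were below both controls in 2230 genes (18.6%) and above them in 2208 genes (18.4%), so 1 of 8 below and 0 of 8 above were no more than this background. The log2 fold change of Cd27 was -0.52 (SE 0.29, 95% interval -1.24 to 0.20, limma adjusted p = 0.755).

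Tnfrsf9, whose product CD137 supports survival of activated CD8+ T cells, was at 156 and 98.6 FPKM in controls and at 113 and 79.4 FPKM in deficient replicates 1 and 3. The groups overlapped, since deficient replicate 1 lay above control replicate 3. Its log2 fold change was -0.39 (SE 0.29, 95% interval -1.12 to 0.35, limma adjusted p = 0.777). Tnfrsf18, encoding GITR, was at 270 and 228 FPKM in controls and at 256 and 129 FPKM in deficient replicates 1 and 3. Here 3 libraries were close together and deficient replicate 3 alone was low. The log2 fold change was -0.45 (SE 0.35, 95% interval -1.32 to 0.42, limma adjusted p = 0.779).

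Tnfrsf4, encoding OX40, was at 65.7 and 23.9 FPKM in control replicates 1 and 3 and at 102 and 11.01 FPKM in deficient replicates 1 and 3. As for Cd28 and Icos, the deficient-labelled libraries held both the highest and the lowest value. The log2 fold change was -0.22 (SE 1.04, 95% interval -2.81 to 2.38, limma adjusted p = 0.967). Tnfrsf4 lies next to Tnfrsf18, 9.708 kb apart on chromosome 4 (GRCm38.p6). The ratio of Tnfrsf4 to Tnfrsf18 FPKM was 0.243 and 0.105 in controls and 0.396 and 0.0855 in deficient replicates 1 and 3, so it moved 4.63-fold between libraries of the same tissue.

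Sequences before the start sites are shown for Tnfrsf9, Tnfrsf4 and Tnfrsf18, the TNF receptor genes that lie on the same chromosome and yet varied by different amounts. RefSeq (GRCm38.p6) gave the 250 bases before each annotated start for 4 of the 8 genes: Cd27, Tnfrsf9 with a pair of starts, Tnfrsf4 and Tnfrsf18. They were searched on both strands for TGANTCA (AP-1), TGTGGT (Runx), GGAAAA (NFAT) and the NF-κB consensus, which occur in 6.75%, 14%, 20.4% and 7.25% of 32851 such windows. Only bases before the gene and outside its annotated exons are printed, and capitals mark a match.
Tnfrsf9, first start, chr4:150919905-150920154, plus strand: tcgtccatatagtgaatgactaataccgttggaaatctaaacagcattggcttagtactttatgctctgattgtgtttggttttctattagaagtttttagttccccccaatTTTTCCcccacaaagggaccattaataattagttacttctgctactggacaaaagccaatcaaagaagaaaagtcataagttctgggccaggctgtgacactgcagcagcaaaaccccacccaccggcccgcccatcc
Tnfrsf4, chr4:156013445-156013594, plus strand: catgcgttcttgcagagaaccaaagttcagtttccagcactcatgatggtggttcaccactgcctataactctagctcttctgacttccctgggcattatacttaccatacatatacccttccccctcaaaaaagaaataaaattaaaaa
Tnfrsf18, chr4:156026072-156026163, plus strand: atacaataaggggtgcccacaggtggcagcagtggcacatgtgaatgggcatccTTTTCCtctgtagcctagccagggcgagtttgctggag

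The capitals in the first Tnfrsf9 window and in Tnfrsf18 are the NFAT motif read on the other strand, and Tnfrsf4 shows none. The window of the second Tnfrsf9 start, which lies within the gene and partly in an exon of another transcript and is not printed, held overlapping matches to the NF-κB consensus and an AP-1 match nearer to the start. The Cd27 window held 1 NFAT match, beyond the annotated gene start, and the whole Tnfrsf4 window held no match to any of the 4 motifs. CG pairs numbered 5 for Cd27, 4 at each Tnfrsf9 start, 5 for Tnfrsf4 and 2 for Tnfrsf18, beside a median of 6 over all windows. Such matches describe letters only, and these data hold no measurement of a factor or a histone mark at these sites.

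Cd40lg, the single ligand in the set, was at 11.8 and 6.26 FPKM in controls and at 18.9 and 1.30 FPKM in deficient replicates 1 and 3. Its highest and lowest values again came from the deficient-labelled libraries, and its lowest value rests on about 17 fragments, estimated from transcript length. The log2 fold change was -0.51 (SE 1.002, 95% interval -3.01 to 1.99, limma adjusted p = 0.905). Cd226 was the steadiest gene, at 22.9 and 21.9 FPKM in controls and at 25.4 and 16.4 FPKM in deficient replicates 1 and 3. Both controls lay between the deficient-labelled libraries, and the log2 fold change was -0.13 (SE 0.27, 95% interval -0.80 to 0.54, limma adjusted p = 0.912).

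**Figure D2:**
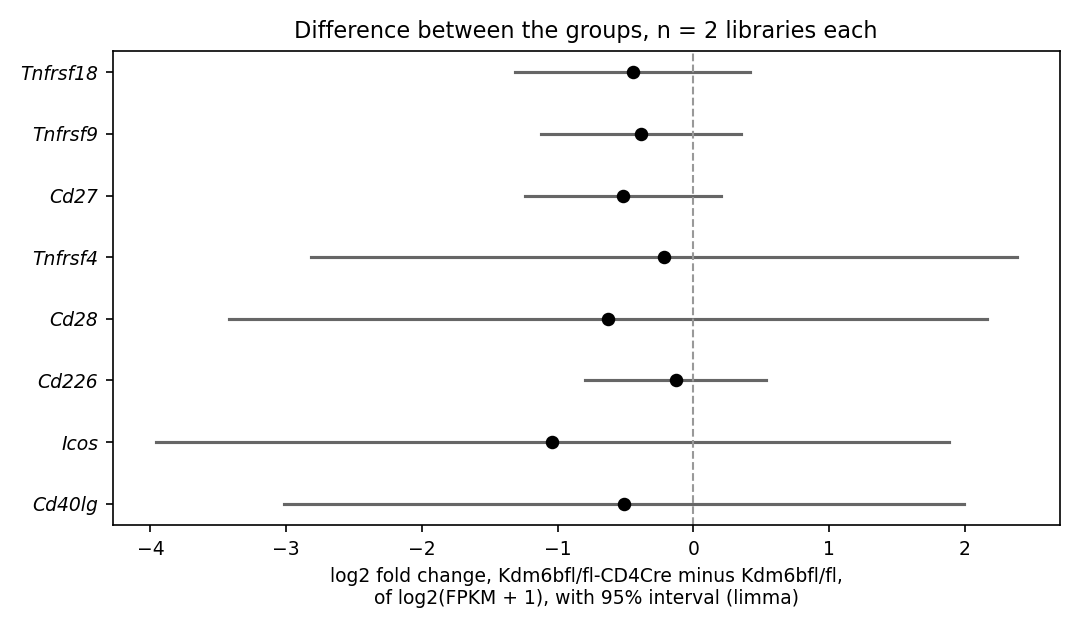
Log2 fold change of log2(FPKM + 1), Kdm6bfl/fl-CD4Cre minus Kdm6bfl/fl, of the 8 receptor genes; points are limma estimates from 2 libraries against 2 and lines are 95% intervals. All 8 points lie below 0 and all 8 intervals include 0, with intervals several log2 units wide for Tnfrsf4, Cd28, Icos and Cd40lg.

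All 8 estimates were below 0, with a median of -0.48 beside 0.00 over all genes tested. This sign is that of mean log values: in mean FPKM the deficient-labelled group was above the controls for Cd28 (26.0 against 22.6), Tnfrsf4 (56.3 against 44.8) and Cd40lg (10.1 against 9.02). The genes share libraries, and deficient replicate 3 was the lowest of the 4 libraries for 8 of the 8 genes, beside 3898 genes (32.5%) over all genes tested. Without that library the estimates of Cd28, Icos, Tnfrsf4, Tnfrsf18, Cd40lg and Cd226 turned positive, at 1.14, 0.80, 1.33, 0.05, 1.05 and 0.17, and 5 of the 8 genes had their remaining deficient-labelled value above both controls, beside 32.2% of all genes tested. Without deficient replicate 1, all 8 genes had their remaining deficient-labelled value below both controls, beside 39.8% of all genes tested, and 4 had an absolute log2 fold change above 1, beside 12.7%. The direction of these 6 genes therefore turned on which of the deficient-labelled libraries was used.

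The 8 genes differed in how far they varied between libraries of 1 genotype. In 7 of them, all but Cd27, both replicate 1 libraries were above both replicate 3 libraries, beside 2743 genes (22.8%) over all genes tested. Between deficient replicates 1 and 3 the FPKM differed 21.2-fold for Icos, 14.9-fold for Cd28, 14.5-fold for Cd40lg and 9.22-fold for Tnfrsf4. For Tnfrsf18, Cd27, Cd226 and Tnfrsf9 it differed 1.99-fold, 1.71-fold, 1.55-fold and 1.42-fold. For Icos, Cd28, Cd40lg and Tnfrsf4 the controls gave smaller gaps in the same direction, from 1.88-fold for Cd40lg to 2.75-fold for Tnfrsf4, while for Tnfrsf9 the control gap, 1.58-fold, was the larger.

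**Figure D3:**
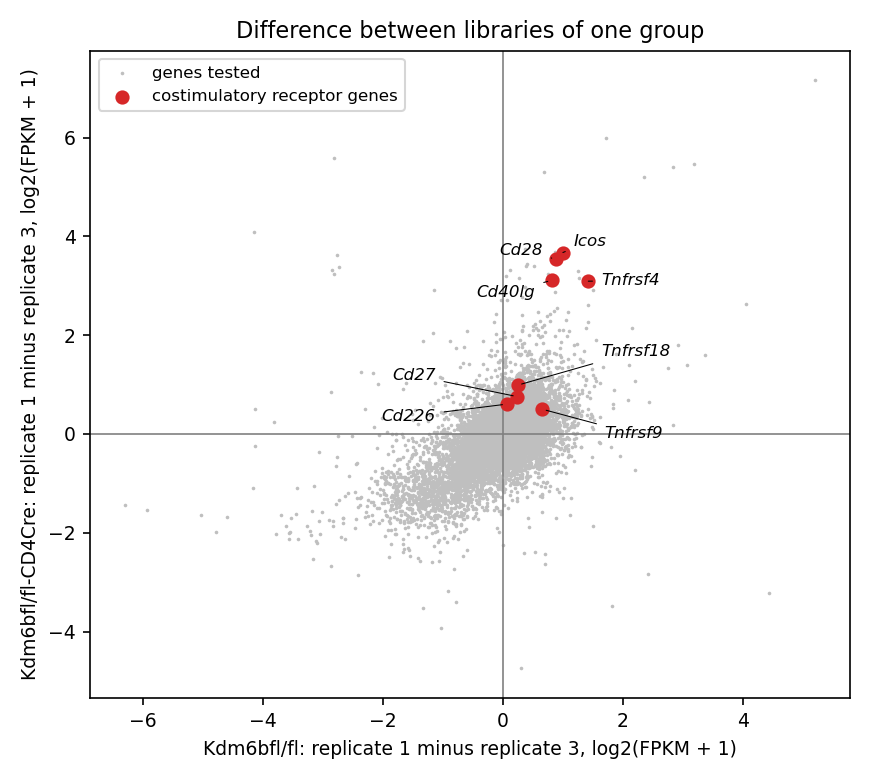
Difference between replicate 1 and replicate 3 in log2(FPKM + 1), within Kdm6bfl/fl (horizontal axis) and within Kdm6bfl/fl-CD4Cre (vertical axis), for each of the 12009 genes tested (grey) and the 8 receptor genes (red). Icos, Cd28, Cd40lg and Tnfrsf4 lie more than 3 log2 units up the vertical axis, while Cd27, Tnfrsf9, Tnfrsf18 and Cd226 lie in the main cloud.

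For the 6 genes that varied by more than 1 log2 unit, the genes with the most similar profile were sought by Euclidean distance between centred log2(FPKM + 1) values over the 4 libraries, among 12009 genes. The nearest to Cd28 were Cd40lg at 0.33, Sit1 at 0.34 and Ms4a4b at 0.35, and the nearest to Cd40lg were Thy1 at 0.32, Cd28 at 0.33 and Ubash3a at 0.33. Cd28 and Cd40lg were thus among each other's closest genes. Icos was nearest to a predicted transcript without a gene symbol (0.10), then to Cd5 (0.38) and Cd6 (0.41), both scavenger receptors of the T cell surface. Tnfrsf4 was nearest to Iigp1 (0.12), an interferon-inducible GTPase, then to Thy1 (0.43) and Ifng (0.50).

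Cd4 had a similar shape, though its values in control replicate 1 and deficient replicate 1 were nearly equal (30.6 and 30.5 FPKM). It ranked 4 among all genes in likeness to Tnfrsf4, 9 for Icos, and 13 for both Cd28 and Cd40lg. The ratio of Cd28 to Cd4 FPKM was 0.968, 1.54, 1.601 and 1.03 over control replicates 1 and 3 and deficient replicates 1 and 3, a span of 1.65-fold, against 12.7-fold for the ratio of Cd28 to Cd3e. For Tnfrsf4 and Cd40lg the ratio to Cd4 spanned 1.61-fold in both, and for Icos 2.57-fold. Other markers of T cells outside the gate did not share this shape. Foxp3 was at 1.79 and 2.35 FPKM in controls and 2.08 and 1.67 FPKM in deficient replicates 1 and 3. For Zbtb7b the values were 4.65, 4.2, 4.38 and 6.52 FPKM over the same libraries. Jchain, a plasma cell gene, was at 16.7 and 0.940 FPKM in controls and 48.8 and 0.13 FPKM in deficient replicates 1 and 3, while Cd79b was at 33.4 and 30.8 FPKM in controls and 32.8 and 28.4 FPKM in deficient replicates 1 and 3, Cd79a at 1.75 to 3.53 FPKM, and Ms4a1 and Pax5 below 1 FPKM. The part of CD4+ or other cells in the values of Cd28, Icos, Tnfrsf4 and Cd40lg was not tested.

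Cd27 and Tnfrsf18 had other neighbours. Cd27 was nearest to Cd3d (0.03), a chain of the T cell receptor complex, to the kinase gene Lck (0.04) and to Ubn1 (0.05), and Tnfrsf18 to Il2rg (0.05), the common γ chain of interleukin receptors, D16Ertd472e (0.07) and Sulf2 (0.07). Of the other 7 receptor genes, the closest to Cd27 was Tnfrsf18, at rank 148. Cd28 and Icos came at ranks 11083 and 11278 of 12009 for Cd27, while Cd27 came at rank 581 for Cd28 and 497 for Icos. The distance counts the size of a swing as well as its shape, so these ranks do not measure shape alone.

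**Figure D4:**
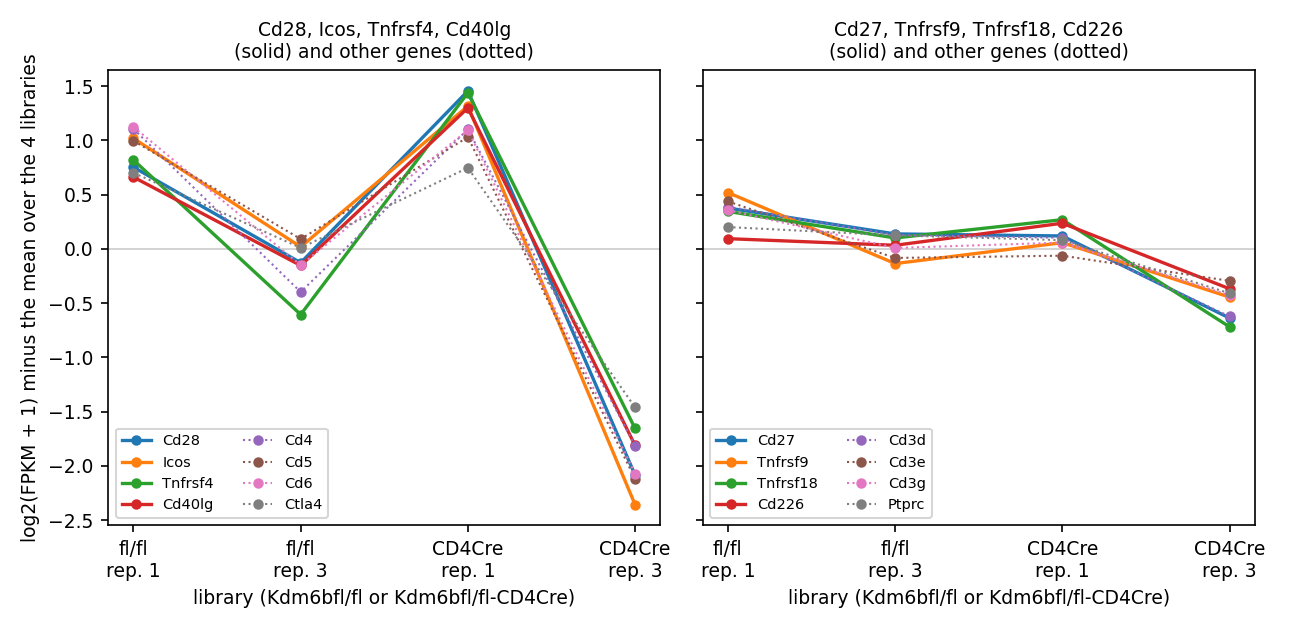
Log2(FPKM + 1) minus its mean over the 4 libraries, by library. Left, Cd28, Icos, Tnfrsf4 and Cd40lg (solid) with Cd4, Cd5, Cd6 and Ctla4 (dotted), which fall by more than 2 log2 units from deficient replicate 1 to replicate 3; right, Cd27, Tnfrsf9, Tnfrsf18 and Cd226 (solid) with Cd3d, Cd3e, Cd3g and Ptprc (dotted), which stay within about 1 log2 unit.

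When each library was scaled to 5 T cell genes (Cd3d, Cd3e, Cd3g, Cd247 and Ptprc), the values are FPKM relative to these 5 genes. Ptprc encodes CD45, which is not limited to T cells. Cd27 then stood at 69.1 and 70.4 in controls and at 69.2 and 60.8 in deficient replicates 1 and 3. Tnfrsf18 stood at 213, 217, 242 and 183, Tnfrsf9 at 123, 93.6, 107 and 112, and Cd226 at 18.0, 20.8, 24.0 and 23.2, in the same order. These 4 genes varied by less than 1.5-fold on this scale. Cd226 had both deficient-labelled libraries above both controls, as did 37.4% of all genes tested on this scale. Cd28, at 23.3, 14.8, 46.1 and 4.65, and Icos, at 18.7, 10.8, 27.9 and 1.97, kept their wide spread. So did Tnfrsf4, at 51.7, 22.7, 96.0 and 15.6, and Cd40lg, at 9.26, 5.94, 17.8 and 1.84.

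This scaling moved the median log2 fold change of all genes tested to 0.38, and that of the 8 receptor genes to -0.07. The T-scaled log2 fold changes were -0.26 for Cd28, -0.72 for Icos, -0.10 for Cd27 and -0.21 for Cd40lg. Those of Tnfrsf9, Tnfrsf18, Tnfrsf4 and Cd226 were 0.03, -0.03, 0.18 and 0.27, so that Tnfrsf9, Tnfrsf4 and Cd226 changed sign. All 8 values lay below the shifted median of all genes.

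**Figure D5:**
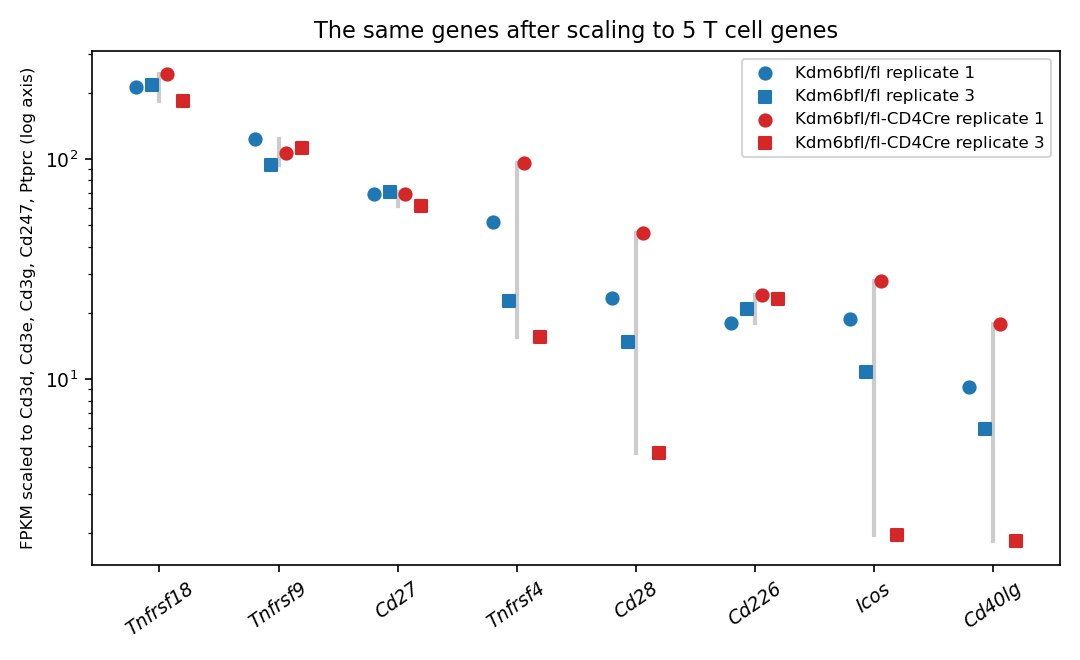
The receptor genes after scaling each library to the 5 T cell genes Cd3d, Cd3e, Cd3g, Cd247 and Ptprc (scaled FPKM, log axis); blue stands for Kdm6bfl/fl and red for Kdm6bfl/fl-CD4Cre, circles for replicate 1 and squares for replicate 3, and grey lines span the 4 values. Tnfrsf18, Tnfrsf9, Cd27 and Cd226 draw together, while Tnfrsf4, Cd28, Icos and Cd40lg keep the order deficient replicate 1, control replicate 1, control replicate 3, deficient replicate 3 from high to low.

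Receptors that share a ligand with Cd28 or Cd226 were also lowest in deficient replicate 3, in 4 of 4 cases beside 32.5% of all genes tested. Ctla4, the inhibitory receptor for CD80 and CD86, lies between Cd28 and Icos on chromosome 1, 135.665 kb from Cd28 and 44.94 kb from Icos. It was at 115 and 70.5 FPKM in controls and at 118 and 24.8 FPKM in deficient replicates 1 and 3, with a log2 fold change of -0.71 (SE 0.72, limma adjusted p = 0.822). Ctla4 exceeded Cd28 in every library, with ratios of 3.87, 4.52, 2.43 and 7.57 over control replicates 1 and 3 and deficient replicates 1 and 3. Tigit, an inhibitory receptor for the CD226 ligands, was at 251 and 184 FPKM in controls and at 188 and 88.5 FPKM in deficient replicates 1 and 3 (log2 fold change -0.73, SE 0.39). Cd96 and Pvrig, related receptors, were lower in both deficient-labelled libraries (2 of 4, beside 18.6% of all genes), with log2 fold changes of -0.44 (SE 0.25) and -0.60 (SE 0.25), and neither passed the test (limma adjusted p = 0.755 for both). The summed FPKM of Tigit and Cd96 was 29.1 and 23.0 times that of Cd226 in controls and 19.99 and 19.2 times in deficient replicates 1 and 3.

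Ligand genes were mostly low in these sorted cells. Of 10 ligand genes, 7 were tested, and Cd70, Tnfsf4 and Tnfsf18 stayed below 1 FPKM in every library. Of the 7, 5 were higher in both deficient-labelled libraries, beside 18.4% of all genes tested, with a median log2 fold change of 0.67, and 0 had an adjusted p under 0.05. Nectin2, the ligand gene with the highest estimate, was at 5.98 and 19.9 FPKM in controls and at 23.4 and 56.2 FPKM in deficient replicates 1 and 3 (log2 fold change 1.63, SE 0.64, limma adjusted p = 0.755). Its order over the libraries is close to that of the epithelial markers, whose geometric mean relative to control replicate 1 was 2.83 in control replicate 3, and 2.46 and 6.70 in deficient replicates 1 and 3. Of the 22 epithelial markers, 4 (Krt18, Cldn3, Tff3 and Olfm4) were higher in both deficient-labelled libraries, a share close to the 18.4% of all genes tested. Their median log2 fold change was 1.32, and the part of epithelial RNA in the Nectin2 values was not tested. Cd80 and Cd86, ligands of CD28 on antigen-presenting cells, had log2 fold changes of 0.83 (SE 0.37) and 0.83 (SE 0.41). Tnfsf9, Icosl, Cd40 and Pvr were at 0.67, 0.34, 0.52 and 0.13. Of the 10 myeloid markers tested, 5 were higher in both deficient-labelled libraries (18.4% of all genes), Lyz2 at 0.71 and Cd68 at 0.59 among them, and 1, Fcer1g at -0.54, was lower. Their summed level was 3717 and 2613 FPKM in controls against 2927 and 2287 FPKM, most of it from Fcer1g and Tyrobp. These genes had negative estimates (-0.54 and -0.45), unlike every other myeloid marker tested, so the sum does not describe the rest. The cell source of Fcer1g and Tyrobp was not tested, nor was the part of myeloid RNA in the ligand values.

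The relays beneath these receptors were expressed throughout. All 18 genes of the TRAF and NF-κB list were tested, of which 9 were lower and 1 higher in both deficient-labelled libraries, beside 18.6% lower and 18.4% higher of all genes tested, with a median log2 fold change of -0.32 and 0 past the adjusted threshold. Traf5, an adaptor of the TNF receptors named above, was at 29.0 and 29.0 FPKM in controls and 24.3 and 16.4 FPKM in deficient replicates 1 and 3, a log2 fold change of -0.52 (SE 0.25). Tnfaip3, the NF-κB inhibitor A20, gave -0.50 (SE 0.24), and Chuk, the kinase IKKα, was the gene that was higher, at 0.55 (SE 0.29). In the PI3K and proximal list, 13 genes were tested and 5 were lower and 0 higher in both deficient-labelled libraries, against the same background of 18.6% and 18.4%, with a median of -0.36. Pik3cd at -0.58 (SE 0.20) and Lck at -0.53 (SE 0.30) encode kinases used by CD28, and neither passed the test (limma adjusted p = 0.755 for both).

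Of 8 other costimulatory receptor genes tested, 3 were lower and 0 higher in both deficient-labelled libraries (18.6% and 18.4% of all genes), with a median log2 fold change of -0.48. Tnfrsf1b, encoding TNF receptor type II, was at 139 and 94.1 FPKM in controls and at 81.5 and 61.9 FPKM in deficient replicates 1 and 3 (log2 fold change -0.68, SE 0.26, limma adjusted p = 0.755). The T cell markers themselves had a median of -0.52, with 4 of 7 lower in both deficient-labelled libraries (18.6% of all genes), Cd3d, Ptprc, Cd8a and Itgae. The part of T cell RNA share in the estimates of the receptor genes was not tested.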

How the data were processed

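Per the labels and the study's methods, TCRαβ+CD8αα+ IELs were sorted into TRIzol, RNA of 3 mice of 1 genotype was pooled per library, and libraries were sequenced on an Illumina HiSeq. FPKM values per gene were computed by the authors and deposited with 1 file per library. The methods name HISAT and Bowtie2 for mapping to mm10 and RSEM for the expression levels. The submitters' processing notes name Bowtie2 2.2.5, RSEM 1.2.8, mm10 and GRCm38.p5. FPKM depends on the whole RNA pool, so more epithelial RNA lowers every T cell value. Gene symbols were matched by gene ID for 18467 of 19339 genes. Reads were not recovered, and the depth behind the values is relative only, with fragments estimated from transcript length.

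Genes were kept if they reached 1 FPKM in 2 or more of the 4 libraries, values were taken as log2(FPKM + 1), and limma 3.58.1 in R 4.3.3 was fitted on genotype over all libraries, with an intensity trend and Benjamini-Hochberg adjustment over all genes tested (two-sided, threshold 0.05). Alternatives were a pseudocount of 0.1, no filter or a minimum of 5 FPKM, median-of-ratios scaling, scaling to 5 T cell genes, limma without a trend, a replicate block and leaving out each library. The members and gene lists were chosen with earlier results of these data known. Beside the 8 genes, the text names the ligands and shared-ligand receptors, Kdm6b, the 3 nearest genes of each member that ranged over 1 log2 unit, and list genes whose groups did not overlap with an absolute log2 fold change above 0.5, at most 6 per list. Cd4, Cd5, Cd6, Foxp3, Zbtb7b, Jchain and the other markers named for their levels were chosen from the lists after their values were seen. Some list genes are not reported here by name.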

Additional observations from a re-analysis of the deposited data

How the results depend on the processing

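None of the 8 receptor genes had an adjusted p under 0.05 under any alternative run. A pseudocount of 0.1, no filter, a minimum of 5 FPKM and median-of-ratios scaling kept the sign of all 8 estimates. Scaling to T cell genes reversed Tnfrsf9 (0.032), Tnfrsf4 (0.18) and Cd226 (0.27). It gave 1 gene higher in both deficient-labelled libraries and 0 lower in both (37.4% and 2.4% of all genes). On this scale 0 had an absolute log2 fold change above 1, beside 12.4% of all genes. With a replicate block, 1019 of 12009 genes had an adjusted p under 0.05, none of them a receptor gene, and 4 receptor genes (Icos, Cd27, Tnfrsf9 and Tnfrsf18) had an unadjusted p under 0.05 beside 22.8% of all genes. Deviations of same-numbered libraries correlated at 0.56 over genes, but no label says that a number marks a shared batch and there are only 2 pairs. Leaving out 1 library leaves a lone library that is assumed to vary like the other group. The count of genes higher in both deficient-labelled libraries then ranged from 0 to 5, of genes lower in both from 1 to 8, and of absolute log2 fold changes above 1 from 0 to 4. With 1 library in a group, these shares over all genes ran from 28.9% to 38.9% higher, 28.6% to 39.8% lower and 2.88% to 12.7% above 1. Without deficient replicate 1, 6 receptor genes had an unadjusted p under 0.05, beside 13.5% of all genes, and without deficient replicate 3 this was 1, Cd28 in the other direction (1.14), beside 2.62%. Over the fits that left out 1 library, the log2 fold change ranged from -2.40 to 1.14 for Cd28 and from -2.88 to 0.80 for Icos. In the same fits it ranged from -1.76 to 1.33 for Tnfrsf4 and from -0.94 to 0.0459 for Tnfrsf18. For Cd40lg it ranged from -2.07 to 1.05 and for Cd226 from -0.43 to 0.17. All of these upper ends came without deficient replicate 3. In these leave-out fits Cd27 stayed negative, from -0.89 without deficient replicate 1 to -0.14 without deficient replicate 3. So did Tnfrsf9, from -0.71 without control replicate 3 to -0.06 without control replicate 1. Without control replicate 1, Tnfrsf4 alone reversed, to 0.50, and 0 genes were above 1 in absolute log2 fold change. Without control replicate 3, 3 genes were lower in both deficient-labelled libraries and 2 were above 1. The depth of the libraries limits Cd40lg and Icos most, at about 17 and 47 fragments in deficient replicate 3.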
